A study of Mus musculus with 19 samples.

Results

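Tumors that arise in the mouse cerebellum when Ptch1 is targeted in Nestin-expressing cells were set against granule neuron progenitors (GNPs) over all genes of an expression array. The members were the 4 arrays titled NEP tumor, NEP standing for Nestin-expressing progenitor, and the 4 arrays titled GNP without the word tumor, together 8 of the 19 arrays of the series. The NEP tumor arrays held tumor cells of Nestin-CreERT2/Ptch1C/C mice, and the GNP arrays held Math1+ neuronal progenitors, Math1 being the older name of Atoh1. Both groups carry the strain label C57BL/6, and all cells were taken from the cerebellum with no culture and no treatment before RNA extraction. The other arrays of the series, which enter the same fit and so its estimate of the spread, and against which levels are placed, were 4 of tumors from Math1-CreERT2/Ptch1C/C mice (GNP tumor), 4 of Nestin+ progenitors (NEP) and 3 of CD133+, Lin- cerebellar progenitors (NSC). CreERT2 is a recombinase that acts once it has bound tamoxifen, and in the NEP tumor mice the Nestin driver alone decides which cells make it. The labels give no age, sex, tumor stage, time of tamoxifen or pooling of animals, and name no sort of the tumor cells. Whether each array stands for its own animal is not stated either, and the sex-linked signals given below bear on this for the GNPs. A p-value here weighs a difference against the spread among these arrays alone. The labels do not say which stretch of Ptch1 is lost, so the Ptch1 signal does not check the tumor label.

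Granule neuron progenitors fill the outer layer of the developing cerebellum, need the transcription factor Atoh1, and divide in response to Sonic hedgehog from Purkinje cells. Hedgehog binding lifts the block that the receptor Ptch1 places on Smo, after which Gli transcription factors switch on targets that include Gli1 and Ptch1 itself. Loss of Ptch1 leaves the pathway on without ligand and gives medulloblastoma, a tumor of the cerebellum, in mice. The comparison asks how far tumors that start in the Nestin-expressing cells have the profile of the granule lineage.

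Signals are log2 values, so that a difference of 1 is a 2-fold difference, and they are listed in the order of the array numbers 1 to 4. Differences are NEP tumor minus GNP unless another pair is named, with the standard error of the fit after the ± sign, and SD marks a standard deviation over arrays. The threshold for a call was an adjusted p of 0.05 in limma (Benjamini-Hochberg over 12148 genes), and a signal is called dim where the group mean lay below the median of all probe sets on the arrays, which ran from 2.44 to 2.57. Numbers in the array titles place the GNP and NEP arrays in one run (8 arrays) and the tumor and NSC arrays in another (11 arrays). Poly-A spike-ins, RNAs added before labelling, averaged 8.69 ± 0.26 (SD, n = 8 arrays) in the GNP run and 6.50 ± 0.27 (SD, n = 11 arrays) in the tumor run. Run and group therefore cannot be told apart in the comparison of NEP tumors with GNPs, whereas NEP and GNP tumors share a run. In tissue of mixed cells, fewer cells of a type and less RNA per cell cannot be told apart.

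The profiles of NEP tumors and GNPs were close for most genes and at least 2-fold apart for 10.9% of them. Calls fell on 5759 of 12148 genes (47.4%), with NEP tumors above GNPs for 2505 (20.6%) and below them for 3254 (26.8%). The counts of every gene list below are to be read beside these shares over all genes. Of the calls 43.5% were higher as deposited and 51.1% after each array was centred on its median gene (2863 higher and 2739 lower), so the majority direction depended on the scaling. Most of these differences were small, since the 95% interval of the difference lay within 2-fold in either direction for 9445 genes (77.7%), 3568 of them called. A difference of at least 2-fold was called for 1329 genes (10.9%), 754 of them higher (6.21%) and 575 lower (4.73%), and one of at least 4-fold for 410. Each gene is given from its brightest probe set; with the mean of all its probe sets, 46 of 197 named genes had a difference in the same direction but over 1.5 times smaller. The median difference over all genes tested was -0.04 and the median size of a difference 0.29. The median SD of a gene was 0.150 over the NEP tumor arrays and 0.145 over the GNP arrays. All 4 NEP tumor arrays lay above all 4 GNP arrays for 2487 genes (20.5%) and below them for 3039 (25%).

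**Figure D1:**
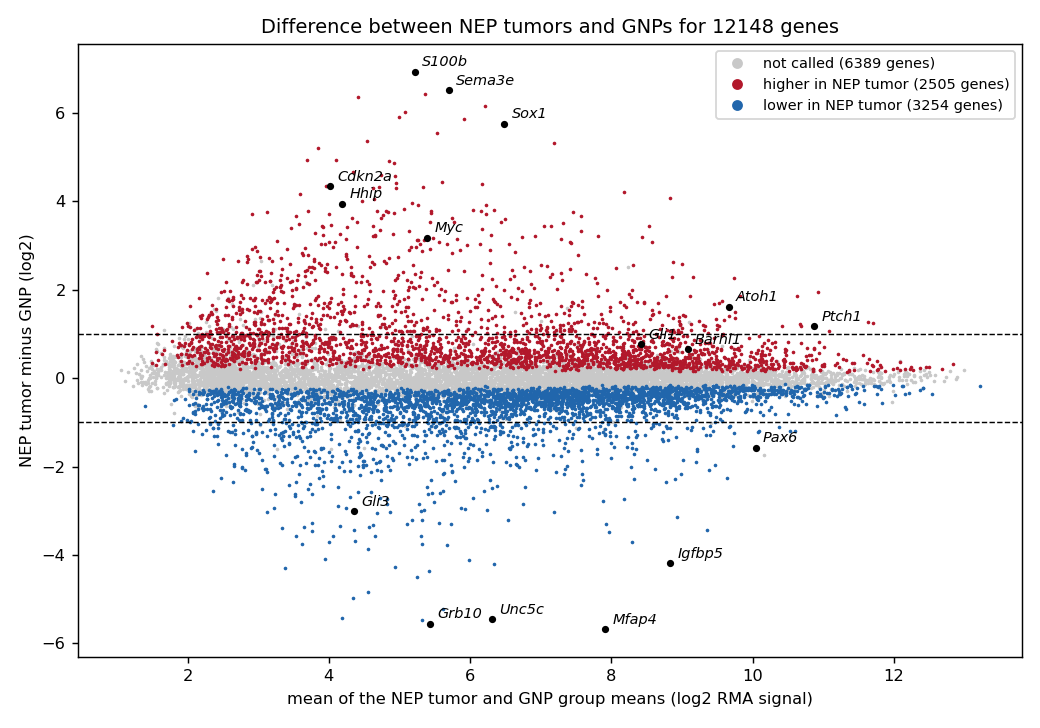
Each of 12148 genes by its mean level (x axis, log2 signal, mean of the NEP tumor and GNP group means) and its difference (y axis, NEP tumor minus GNP, log2). Red points are the 2505 genes called higher, blue points the 3254 called lower and grey points the 6389 not called, and dashed lines mark 2-fold; the largest differences, such as S100b at 6.93 and Mfap4 at -5.68, stand among many small ones.

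Against the other groups, the NEP tumor arrays stood nearest to the GNP tumors. The Pearson correlation across the genes tested had a median of 0.983 with GNP tumor arrays (16 pairs, 0.980 to 0.985), 0.862 with NEP arrays (16 pairs, 0.830 to 0.905), 0.949 with NSC arrays (12 pairs, 0.947 to 0.954) and 0.949 with GNP arrays (16 pairs, 0.943 to 0.952). Among themselves the NEP tumor arrays correlated at 0.984 to 0.996 and the GNP arrays at 0.991 to 0.998. GNP and NSC arrays thus had the same median correlation with the tumors, and the lowest correlations were with NEP arrays. GNP tumor and NSC arrays share the run of the NEP tumors and GNP and NEP arrays do not, so run and cell type cannot be told apart in this order. The NEP arrays were also uneven. Their r with the tumors was 0.830 to 0.843 for arrays 1 and 2 and up to 0.905 for array 3. The summed signal of 21 macrophage genes ran from 6.80 to 13.67 (log2) among NEP arrays, and its part in these correlations was not tested. These are correlations across genes, which are not independent replicates, and all arrays share 1 platform and 1 normalization.

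**Figure D2:**
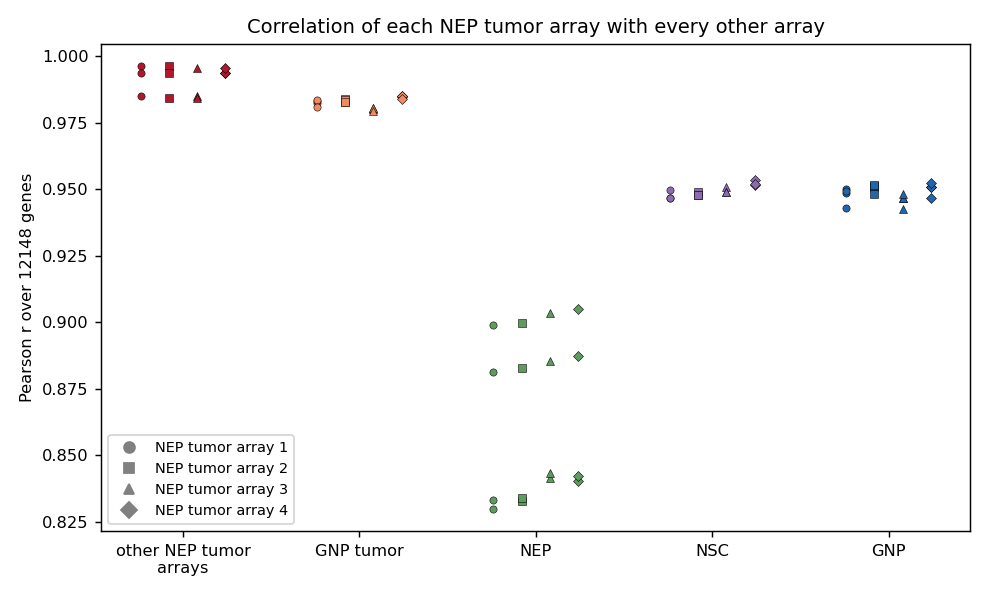
Pearson correlation (y axis) of each NEP tumor array, marked by symbol, with each other array, grouped on the x axis. Values with GNP tumors sit between 0.980 and 0.985, those with NSCs and GNPs overlap near 0.949, and those with NEPs spread from 0.830 to 0.905.

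The same fit gives the other comparisons side by side. NEP tumors against GNP tumors, both in 1 run, had 2861 genes called (23.6%; 15.5% of genes higher and 8.1% lower), 190 at least 2-fold higher (1.56%) and 117 at least 2-fold lower (0.963%), with 88.8% of genes within 2-fold. Of these calls 65.6% were higher in NEP tumors as deposited, 45.4% after centring each array on its median gene and 52.0% after a second quantile normalization, so the balance of direction between the tumors depended on the scaling. GNP tumors against GNPs had 6055 genes called (49.8%; 18.5% of genes higher and 31.4% lower), 723 at least 2-fold higher (5.95%) and 744 at least 2-fold lower (6.12%), with 76.7% within 2-fold; 37.1% of these calls were higher as deposited and 54.7% after centring. NEP tumors against NEPs had 8365 genes called (68.9%; 36.2% of genes higher and 32.6% lower), 1070 at least 2-fold higher (8.81%) and 1864 at least 2-fold lower (15.3%), with 63.7% within 2-fold. The comparisons share arrays, so no overlap between them is given.

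The position of the second run was read gene by gene. Among the 754 genes at least 2-fold higher in NEP tumors, 36 (4.77%) had all 11 arrays of the tumor run above all 8 arrays of the GNP run. For 237 (31.4%) every NSC array, which shares the tumor run, lay within the range of the GNPs or below it. Among the 575 genes at least 2-fold lower, 60 (10.4%) had the whole tumor run below the whole GNP run, and for 195 (33.9%) every NSC array lay within the GNP range or above it. These counts were not made over all genes. Counts of the whole run also need the NEP arrays, of another cell type, to lie on the GNP side. They are therefore not a size of the part of the run, which was not tested.

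Transcription factors of granule progenitors included genes called in both directions. Of 16 tested from a list of 20, 2 were called higher (12.5%, beside 20.6% of all genes) and 4 lower (25%, beside 26.8%). In this fit the counts were thus no higher than over all genes. The intervals of 9 (56.25%) lay within 2-fold, beside 77.7% of all genes, and the median difference was -0.19, beside -0.04. The width of an interval takes in the spread over all 5 groups, which was wide for Atoh1, as given below. With only the 2 groups in the fit the calls were 2 higher and 7 lower, beside 2678 higher and 3174 lower of all 12148 genes. A larger share of the list than of all genes was then called lower. With tumor arrays 3 and 4 alone the list had 1 higher and 1 lower, beside 2070 and 2820 of all genes. The same list had a median of -0.33 in GNP tumors against GNPs, with 0 called higher and 3 lower.

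Atoh1, which specifies the granule lineage, had signals of 10.50, 10.67, 10.31 and 10.41 in NEP tumors, against 8.77, 8.96, 8.80 and 8.89 in GNPs. Every tumor array was above every GNP array, and the difference was 1.62 ± 0.48 (adjusted p = 0.0106). With tumor arrays 3 and 4 alone it was 1.51 and not called (adjusted p = 0.0698). The spread that the fit shares between groups is wide for this gene, since the NEP arrays ran from 2.38 to 5.67. GNP tumors had 9.38, 9.45, 9.44 and 9.44, 0.57 ± 0.48 above GNPs (adjusted p = 0.344), and the 2 tumor groups differed by 1.05 ± 0.48 (adjusted p = 0.13), so neither of these was called.

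Barhl1, a homeobox factor of migrating granule cells that lies downstream of Atoh1 in mouse, read 9.24, 9.42, 9.49 and 9.48 in NEP tumors and 8.58, 8.72, 8.78 and 8.92 in GNPs. The groups did not overlap, but the difference of 0.65 ± 0.48 was not called (adjusted p = 0.275, interval -0.35 to 1.66). With only the 2 groups in the fit, the same difference was called (adjusted p = 0.000423). That fit leaves out the NEP, NSC and GNP tumor arrays together, and the part of each group in the change of call was not tested. The NEP arrays read 2.33, 2.31, 5.43 and 4.47. The window around a Barhl1 start site is printed because it holds an E-box, CAGCTG, in capitals, letters that proteins of the Atoh1 class can bind. It spans 300 bases, most of them before the start, on the minus strand at chr2:28916619-28916918 (GRCm38.p6, RefSeq); the window of a second start site, at chr2:28912446-28912745, holds the letters too.
Barhl1: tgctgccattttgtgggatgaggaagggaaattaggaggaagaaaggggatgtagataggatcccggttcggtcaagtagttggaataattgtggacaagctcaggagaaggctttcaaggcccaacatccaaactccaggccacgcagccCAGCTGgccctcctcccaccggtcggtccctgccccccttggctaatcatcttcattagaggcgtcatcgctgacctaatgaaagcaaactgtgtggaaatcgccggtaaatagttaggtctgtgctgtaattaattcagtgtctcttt
CAGCTG reads the same on both strands. It stands in 16.3% of all 32851 RefSeq promoter windows of this length and in those of 3 of the 12 list members with a window, Barhl1, Nhlh2 and En1, so its presence is a description only.

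Pax6, a homeobox factor of granule progenitors, had the largest called fall in the list. Its signal was 9.02, 9.06, 9.52 and 9.43 in NEP tumors, against 10.94, 10.82, 10.84 and 10.72 in GNPs, and it fell by 1.57 with no overlap (SE 0.16, adjusted p = 3.78e-07). In GNP tumors it was lower still, at 8.38, 8.34, 8.31 and 8.30, and the tumors differed by 0.92 ± 0.16 (adjusted p = 0.000501). En2, a patterning factor of the midbrain and cerebellum, fell by 0.76 (adjusted p = 0.0199), and the zinc finger factors Zic4 and Zic5 fell, at -0.48 (adjusted p = 0.0136) and -0.48 (adjusted p = 0.0159). The calls of En2 and Zic5 were lost without 1 tumor array, at adjusted p = 0.0707 for En2 without array 1 and 0.0564 for Zic5 without array 2. With the mean of its probe sets Zic4 was at -0.24 and not called (adjusted p = 0.131). Zic1 was called 0.18 higher (adjusted p = 0.0462) with overlapping arrays, a call that 6 of the 8 fits without 1 array did not keep (adjusted p up to 0.134, without tumor array 3). Nhlh1, Barhl2 and Meis1 had differences of -0.01, -0.04 and -0.11, and Nhlh2 differed least; none of these was called. For Nhlh2 the interval, -0.41 to 0.40, lay within 2-fold. The probe sets of Meis1 disagreed: another one was at -1.53 (adjusted p = 0.000354), and with the mean of all of them Meis1 was called lower at -0.56 (adjusted p = 0.00291).

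Members that receive and restrain hedgehog split in direction. Of 15 tested from a list of 17, 5 were called higher and 5 lower (33.3% each, beside 20.6% and 26.8% of all genes), with a median difference of -0.18. Ptch1, the receptor and a target of its own pathway, read 11.59, 11.39, 11.45 and 11.41 in NEP tumors and 10.38, 10.17, 10.27 and 10.32 in GNPs. All tumor arrays were higher, by 1.18 ± 0.10 (adjusted p = 1.05e-07), and GNP tumors stood 0.93 ± 0.10 above GNPs. Hhip, a membrane protein that binds hedgehog ligand and is itself a target, read 6.48, 6.56, 5.73 and 5.89 in NEP tumors, against 2.10, 2.11, 2.19 and 2.45 in GNPs, where it was dim. The difference was 3.95 ± 0.19 (adjusted p = 3.48e-11), and NEP tumors were also above GNP tumors, which read 4.72, 4.92, 4.89 and 4.99, by 1.28 ± 0.19 (adjusted p = 0.000146).

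Gli3, the family member that mainly represses hedgehog targets, went the other way. It read 2.82, 2.66, 2.99 and 2.93 in NEP tumors and 5.95, 5.95, 6.09 and 5.47 in GNPs, and it fell by 3.02 without overlap (SE 0.16, adjusted p = 1.46e-10). GNP tumors, at 3.36, 3.09, 3.09 and 2.92, stood at -2.75 ± 0.16 against GNPs. Gli2, the main activator, was not called at -0.18 ± 0.13 (adjusted p = 0.267), and Smo, the transducer that Ptch1 blocks, was not called at 0.08 ± 0.08 (adjusted p = 0.415). Their intervals, -0.45 to 0.09 for Gli2 and -0.08 to 0.25 for Smo, lay within 2-fold. Sufu, which holds Gli proteins in the cytoplasm, rose by 0.48 ± 0.08 (adjusted p = 6.99e-05), and the co-receptors Boc and Gas1 rose by 0.48 ± 0.14 (adjusted p = 0.0095) and 0.39 ± 0.09 (adjusted p = 0.00256). Kif7 and Gpr161, regulators in the primary cilium, fell, at -0.61 (adjusted p = 0.0158) and -0.32 (adjusted p = 0.025) with overlapping arrays. Neither call was stable: Kif7 had an adjusted p of 0.0621 without tumor array 3 and 0.0549 without array 4, and Gpr161 lost its call in 5 of the 8 fits without 1 array. Dyrk2, a kinase that acts on Gli2, and Stk36 fell, at -0.34 (adjusted p = 0.00177) and -0.80 (adjusted p = 0.00517).

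Hedgehog targets and effectors were mostly higher. Of 14 tested from a list of 16, 8 were called higher (57.1%, beside 20.6% of all genes) and 2 lower (14.3%, beside 26.8%). The median difference was 0.63 in NEP tumors, and GNP tumors against GNPs had 7 higher, 2 lower and a median of 0.41. Gli1, the most direct readout of the pathway, read 8.87, 9.03, 8.53 and 8.77 in NEP tumors, against 7.76, 8.10, 7.94 and 8.35 in GNPs. Its arrays did not overlap and it rose by 0.76 ± 0.26 (adjusted p = 0.0234), but the call was lost without tumor array 1 (adjusted p = 0.0512) or 2 (0.0617), and without GNP array 1 (0.0665) or 3 (0.0533). GNP tumors read 8.21, 8.54, 8.52 and 8.61, 0.43 ± 0.26 from GNPs (adjusted p = 0.182). Pdlim3, a muscle and cytoskeleton protein used as a marker of hedgehog-type medulloblastoma in humans, rose by 1.81 ± 0.19 (adjusted p = 8.4e-07) and the chemokine receptor Cxcr4 by 1.50 ± 0.16 (adjusted p = 1.15e-06).

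Ccnd1, the D cyclin that hedgehog induces, read 10.89, 11.005, 10.53 and 10.77 in NEP tumors and 10.09, 10.26, 10.17 and 10.002 in GNPs, 0.67 ± 0.09 apart (adjusted p = 1.16e-05). Mycn, which drives progenitor division under hedgehog, read 9.91, 10.02, 10.44 and 10.25 in NEP tumors and 9.73, 9.64, 9.70 and 9.91 in GNPs. The Mycn arrays did not overlap, yet 0.41 ± 0.18 was not called (adjusted p = 0.0719); it was called with only the 2 groups in the fit (adjusted p = 0.0197). Bmi1, Sfrp1 and Bcl2 rose by 0.79, 0.70 and 0.61, and Nkx2-2, dim in both groups, by 0.64. Lower were Eya1, a phosphatase and co-activator, at -2.17 ± 0.18 (adjusted p = 3.22e-08), and Gab1, an adaptor of growth factor receptors, at -1.59 ± 0.29 (adjusted p = 0.000245). Gab1 read 6.77, 6.79, 8.61 and 8.06 in NEP tumors and 9.07, 9.37, 9.13 and 9.04 in GNPs, so that tumor arrays 3 and 4 lay nearest to the GNPs. The Gli site GACCACCCA, searched on both strands, stands in 0.253% of all promoter windows and in none of the windows of the 8 target and 14 reception genes that have one, which says only that these letters are not in those 300 bases.

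**Figure D3:**
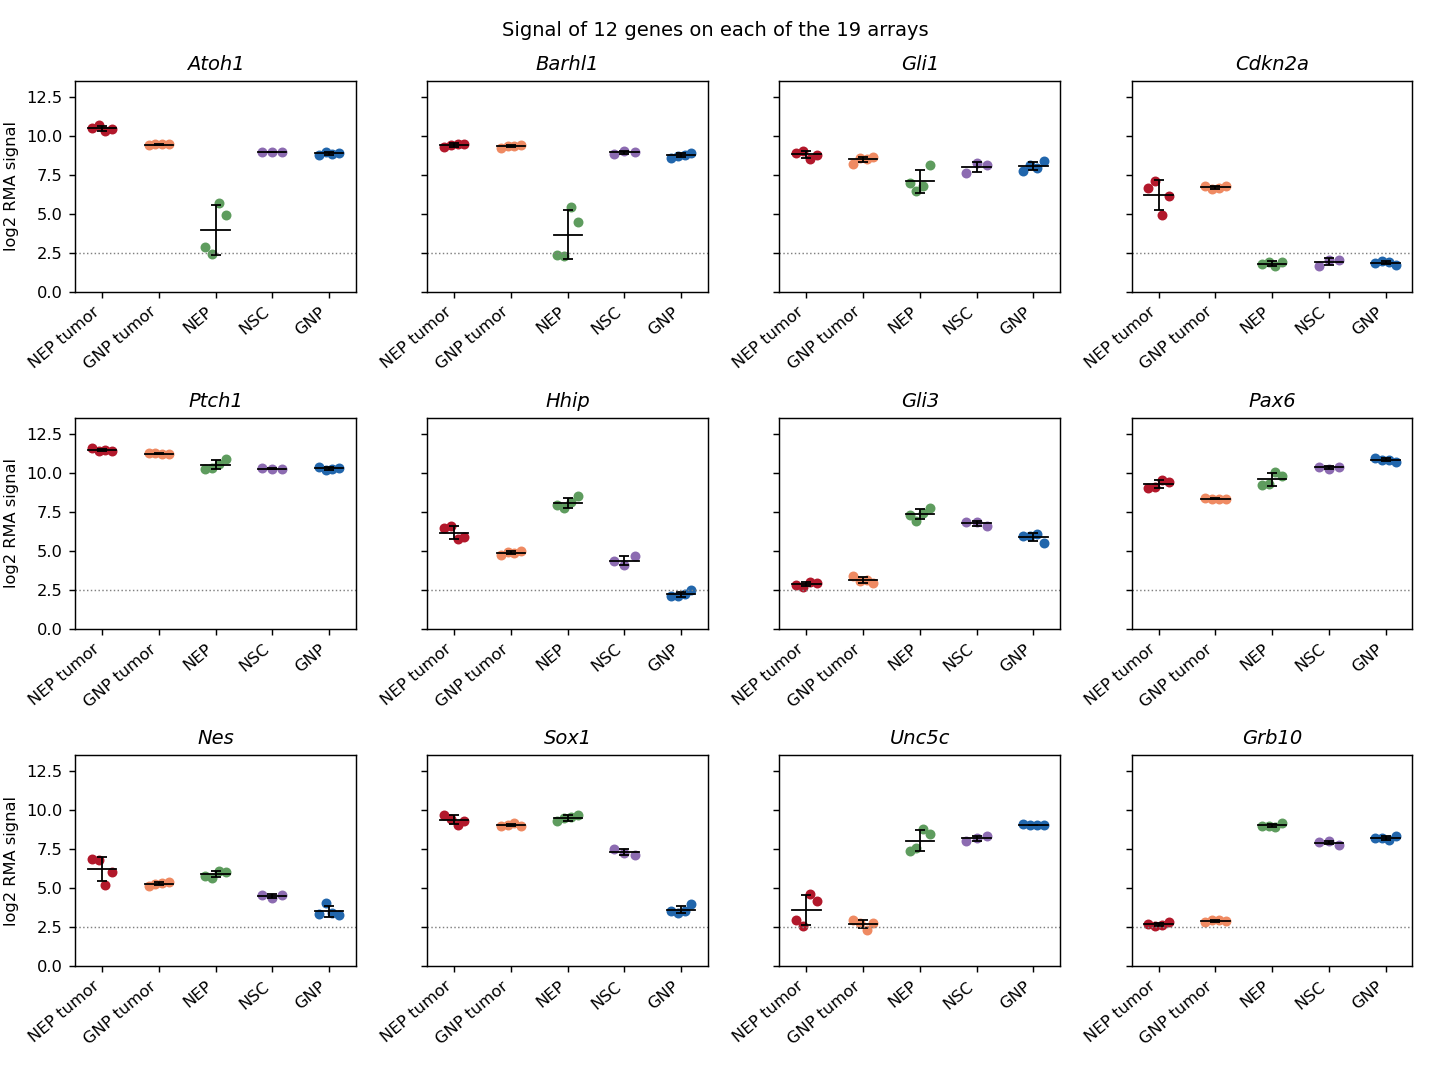
Log2 signal (y axis) of 12 genes on the 19 arrays, 1 point per array, by group (x axis), with group mean and SD as bars and a dotted line at the middle of the array medians. Atoh1, Ptch1, Hhip, Cdkn2a, Nes and Sox1 sit higher on all 4 NEP tumor arrays than on all 4 GNP arrays, and Gli3, Pax6, Unc5c and Grb10 sit lower.

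Genes of differentiating granule neurons held some of the largest falls. Of 26 tested from a list of 28, 5 were called higher (19.2%, beside 20.6% of all genes) and 9 lower (34.6%, beside 26.8%), with a median difference of -0.33; in GNP tumors against GNPs 3 were higher and 8 lower with a median of -0.55. Without tumor array 3 the NEP tumor calls were 3 higher and 9 lower, and with only the 2 groups in the fit 3 higher and 12 lower. Unc5c, a netrin receptor that guides migrating granule cells, read 2.96, 2.58, 4.63 and 4.18 in NEP tumors, against 9.07, 9.04, 9.03 and 9.04 in GNPs. It fell by 5.46 (SE 0.37, adjusted p = 3.09e-09), with tumor arrays 1 and 2 below arrays 3 and 4. Neurod2, a differentiation factor, read 3.90, 3.92, 3.80 and 3.59 in NEP tumors and 6.45, 6.85, 6.92 and 7.02 in GNPs and fell by 3.01 (adjusted p = 7.95e-07). Syt1, a calcium sensor of synaptic vesicles, fell, at -2.84 (adjusted p = 2.58e-08) and Cntn1, an adhesion protein of axons, at -2.31 (adjusted p = 2.69e-08).

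Gabra6 and Cbln3, genes of mature granule neurons, were among the 5 members called higher, beside 9 called lower. Both had low signals, with Cbln3 means of 3.58 in NEP tumors and 2.66 in GNPs. Grin2c, also in the list, did not pass the signal filter, with means of 1.72 in NEP tumors and 2.14 in GNPs. Gabra6, a GABA receptor subunit of mature granule neurons, read 3.14, 3.61, 3.52 and 3.50 in NEP tumors and 1.55, 1.40, 1.48 and 1.57 in GNPs, where it was dim, and rose by 1.94 ± 0.11 (adjusted p = 4.18e-10). Cbln3, a synaptic protein of the same cells, rose by 0.92 ± 0.12 (adjusted p = 8.98e-06), and the calcium-binding protein gene Calb2 by 1.43 ± 0.20 (adjusted p = 2.26e-05). NEP tumors also exceeded GNP tumors for Gabra6 by 0.70 ± 0.11 (adjusted p = 0.000292) and for Cbln3 by 0.71 ± 0.12 (adjusted p = 0.000556). Map2 and Nfib were called 0.35 and 0.22 higher; without tumor array 3 the adjusted p was 0.0586 for Map2 and 0.12 for Nfib. The Nfib call was lost in 6 of the 8 fits without 1 array, with adjusted p = 0.14 without GNP array 4, and another Nfib probe set was called the opposite way.

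Genes that drive the cell cycle were called lower more often than higher, with Cdk6, Ccnd1 and Ccnd3 as exceptions. Of 23 tested from a list of 24, 3 were called higher (13.0%, beside 20.6% of all genes) and 11 lower (47.8%, beside 26.8%), with a median of -0.19. With tumor arrays 1 and 2 alone 3 were called higher and 7 lower. Cdk6, a G1 kinase, read 11.52, 11.37, 11.72 and 11.60 in NEP tumors and 9.74, 9.61, 9.69 and 9.76 in GNPs, and rose by 1.85 ± 0.12 (adjusted p = 1.33e-09). Its partners Ccnd1 and Ccnd3 rose too, Ccnd3 by 0.66 ± 0.15 (adjusted p = 0.0013). E2f2, an E2F activator of S phase genes, read 5.61, 5.67, 5.65 and 5.64 in NEP tumors and 7.02, 7.05, 7.03 and 7.03 in GNPs. The arrays of each group lay very close together and the groups were -1.39 ± 0.11 apart (adjusted p = 1.53e-08). E2f7, a repressor of the same family, fell, at -1.30 (adjusted p = 2.15e-06), and Ccne1, the cyclin of the G1 to S step, at -1.02 (adjusted p = 7.89e-07).

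Replication and mitosis genes differed little in size. All 35 of the list were tested, and 14 were called lower (40%, beside 26.8% of all genes) and 0 higher (beside 20.6%). The intervals of 32 lay within 2-fold (91.4%, beside 77.7%), and the median was -0.24, beside -0.04. With the mean of all probe sets the calls were 12 lower and 2 higher, 1 was called higher without tumor array 1 or array 3, and with tumor arrays 1 and 2 alone 7 lower and 2 higher. Tyms and Tk1, enzymes that make thymidine nucleotides, fell, at -0.76 (adjusted p = 0.000122) and -0.76 (adjusted p = 0.000508), and Mcm10, a replication start factor, at -0.70 (adjusted p = 0.00436). The Mcm2 to Mcm7 genes, which encode the replicative helicase and are named here after their values were seen, were not called, at 0.21, 0.08, -0.02, 0.06, 0.02 and -0.05. Cenpe, a motor of the kinetochore, was called lower at -0.64 ± 0.16 (adjusted p = 0.00369) from its brightest probe set, but higher at 0.53 (adjusted p = 0.0124) when all its probe sets were averaged, so its direction is uncertain.

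E2F sites give a view of the promoters behind these values. The letters searched on both strands were TTTGGCGC and TTTCGCGC, which stand in 0.813% of all promoter windows and in those of 1.85% of the tested genes that have a window. They stand in the windows of 5 of 29 replication and mitosis genes (Mcm3, Mcm5, Mcm6, Mcm7 and Cdt1) and of 3 of 17 drivers (Cdk1, E2f2 and Cdc25a). The windows of Mcm6 (chr1:128359656-128359955, minus strand), Mcm5 (chr8:75109259-75109558, plus strand) and E2f2 (chr4:136172024-136172323, plus strand), GRCm38.p6 from RefSeq, are printed because they hold the same letters, in capitals, while the genes differed in call. A second RefSeq start site of E2f2, at chr4:136180532-136180831, has a window with none of these letters.
Mcm6: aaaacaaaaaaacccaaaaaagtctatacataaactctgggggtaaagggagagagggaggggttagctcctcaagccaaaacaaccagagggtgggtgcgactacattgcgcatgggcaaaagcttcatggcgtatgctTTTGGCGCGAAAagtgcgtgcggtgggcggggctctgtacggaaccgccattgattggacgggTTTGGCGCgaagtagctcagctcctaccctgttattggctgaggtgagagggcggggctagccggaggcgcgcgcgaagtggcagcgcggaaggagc
Mcm5: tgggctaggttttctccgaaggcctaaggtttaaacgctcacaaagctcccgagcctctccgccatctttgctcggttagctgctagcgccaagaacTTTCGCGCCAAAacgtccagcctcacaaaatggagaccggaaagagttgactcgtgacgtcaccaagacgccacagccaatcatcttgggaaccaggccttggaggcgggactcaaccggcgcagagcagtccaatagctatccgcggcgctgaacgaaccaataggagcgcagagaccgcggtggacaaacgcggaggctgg
E2f2: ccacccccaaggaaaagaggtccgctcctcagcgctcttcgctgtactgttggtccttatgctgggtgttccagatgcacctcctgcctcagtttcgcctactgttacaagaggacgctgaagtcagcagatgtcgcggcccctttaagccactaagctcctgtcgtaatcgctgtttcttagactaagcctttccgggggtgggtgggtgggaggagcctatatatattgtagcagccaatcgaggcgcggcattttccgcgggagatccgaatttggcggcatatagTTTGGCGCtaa
In the Mcm6 window the matches start at positions 141, 145 and 204 and in the Mcm5 window at 98 and 102, counted from 1 at the 5′ end. The first pair in Mcm6 and the pair in Mcm5 overlap, 1 match on each strand. Beside these letters stand differences of 0.02 for Mcm6, 0.06 for Mcm5 and -1.39 for E2f2, of which E2f2 alone was called. A match is a description of the letters, not a measured binding site.

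Calls among inhibitors of the cyclin-dependent kinases were upward. Of 11 inhibitors and pocket proteins tested, 6 were called higher (54.5%, beside 20.6% of all genes) and 0 lower (1 without tumor array 3), with a median of 0.41. GNP tumors against GNPs had 6 higher, 1 lower and a median of 0.51. Cdkn2a, which encodes the inhibitor p16Ink4a and the Mdm2 antagonist p19Arf from different first exons, read 6.65, 7.10, 4.89 and 6.11 in NEP tumors, against 1.83, 1.98, 1.87 and 1.72 in GNPs, where it was dim. Tumor array 3 was the lowest of its group and still far above every GNP array, and the difference was 4.34 ± 0.30 (adjusted p = 4.53e-09). GNP tumors read 6.77, 6.58, 6.63 and 6.76 and the tumors did not differ by the test (-0.50 ± 0.30, adjusted p = 0.259). NEP and NSC arrays read 1.78, 1.90, 1.61 and 1.89 and 1.64, 2.05 and 2.03, so that the signal was dim in all groups without a tumor. A single probe set was used for both transcripts and cannot tell them apart. Both RefSeq start sites are printed, on the minus strand of GRCm38.p6 at chr4:89294570-89294869 (site 1) and chr4:89282143-89282442 (site 2), to show that the 2 promoters lie apart and hold none of the Gli, E2F or E-box letters, so that nothing is in capitals.
Cdkn2a site 1: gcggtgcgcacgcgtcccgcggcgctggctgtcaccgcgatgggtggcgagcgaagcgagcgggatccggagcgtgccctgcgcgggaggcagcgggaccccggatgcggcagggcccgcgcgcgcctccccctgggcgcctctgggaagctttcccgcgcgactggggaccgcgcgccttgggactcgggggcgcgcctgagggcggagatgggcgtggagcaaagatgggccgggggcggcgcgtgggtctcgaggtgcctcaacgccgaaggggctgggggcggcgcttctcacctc
Cdkn2a site 2: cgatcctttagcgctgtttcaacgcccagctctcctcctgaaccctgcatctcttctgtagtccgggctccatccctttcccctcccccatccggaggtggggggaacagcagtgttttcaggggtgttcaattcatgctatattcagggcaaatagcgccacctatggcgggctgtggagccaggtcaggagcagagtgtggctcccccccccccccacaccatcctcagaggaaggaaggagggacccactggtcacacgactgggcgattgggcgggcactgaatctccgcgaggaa
Cdkn2b, which encodes p15Ink4b beside Cdkn2a, read 4.41, 4.71, 4.38 and 4.39 in NEP tumors and 2.36, 2.47, 2.57 and 2.53 in GNPs, 1.99 ± 0.13 apart (adjusted p = 3.3e-09). Cdkn1a, the p21 inhibitor that p53 induces, read 7.06, 7.26, 6.85 and 7.002 in NEP tumors and 5.12, 5.27, 5.12 and 5.15 in GNPs, 1.88 ± 0.13 apart (adjusted p = 5.43e-09). Neither gene had overlapping arrays.

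Targets of p53, the transcription factor that answers DNA damage and oncogene stress, were mostly higher as well. Of 18 tested from a list of 22, 10 were called higher (55.6%, beside 20.6% of all genes) and 1 lower (2 without tumor array 2), with a median of 0.45. GNP tumors against GNPs had 9 higher, 1 lower and a median of 0.50. The pro-apoptotic genes Bbc3 and Pmaip1 (Puma and Noxa) were among them. Bbc3 read 5.90, 5.87, 5.92 and 5.79 in NEP tumors and 4.09, 4.09, 4.06 and 4.27 in GNPs, 1.74 ± 0.11 apart (adjusted p = 2.33e-09), and stood below GNP tumors, which read 6.73, 6.56, 6.53 and 6.52, at -0.72 ± 0.11 (adjusted p = 0.00032). Pmaip1 read 6.82, 6.48, 6.05 and 6.16 in NEP tumors and 4.46, 3.999, 4.54 and 4.45 in GNPs, 2.01 ± 0.24 apart (adjusted p = 2.95e-06), and exceeded GNP tumors by 1.64 ± 0.24 (adjusted p = 0.000136). Phlda3, which restrains Akt, rose by 2.02 ± 0.16 (adjusted p = 2.45e-08), and Eda2r, a receptor of the tumor necrosis factor family, by 1.77 ± 0.13 (adjusted p = 1.4e-08). Pidd1, which forms a caspase-2 complex, was called lower at -0.40 (adjusted p = 0.0177), with an adjusted p of 0.0538 without tumor array 3, 0.0629 without array 4 and 0.0665 without GNP array 4.

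Apoptosis, repair and Myc genes changed in single members. In the Bcl2 family 4 of 13 were called higher and 4 lower (30.8% each, beside 20.6% and 26.8% of all genes). The median was 0.05, but -0.02 without GNP array 4 and -0.07 with the mean of all probe sets. Hrk, a BH3-only death protein, read 6.23, 6.23, 5.66 and 5.76 in NEP tumors and 2.18, 2.79, 2.37 and 2.88 in GNPs. Hrk rose by 3.41 ± 0.24 (adjusted p = 5.96e-09), and less than in GNP tumors, where it read 7.70, 7.64, 7.58 and 7.93 (tumor difference -1.74 ± 0.24, adjusted p = 9.38e-05). Bcl2l1, which encodes the survival protein Bcl-xL, fell by 0.72 (adjusted p = 0.000689). DNA repair genes had 2 of 35 called higher (5.71%, beside 20.6% of all genes) and 12 lower (34.3%, beside 26.8%). The intervals of 34 lay within 2-fold (97.1%, beside 77.7%), with a median of -0.10. Lower were, among others, Brca2, of homologous recombination, at -0.77 ± 0.18 (adjusted p = 0.00178) and the ligase gene Lig1 at -0.67 ± 0.11 (adjusted p = 5.74e-05). With tumor arrays 1 and 2 alone the repair calls were 4 higher and 7 lower, and without array 3 they were 4 and 9. Chek2 and Xpc were the 2 repair genes called higher, by 0.54 (adjusted p = 0.00232) and 0.44 (adjusted p = 0.00177). Myc, a transcription factor that drives growth, read 7.08, 7.24, 6.66 and 6.96 in NEP tumors, against 4.04, 3.86, 3.80 and 3.53 in GNPs, and rose by 3.18 ± 0.12 (adjusted p = 2.72e-12), with 3.34 ± 0.12 in GNP tumors. Of 10 Myc family members and partners 5 were called higher (50%, beside 20.6% of all genes) and 2 lower (20%, beside 26.8%). The lower count was 1 without tumor array 1 or 2 and without GNP array 2 or 3. Mycl was one of those higher, at 0.80 (adjusted p = 0.000183).

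**Figure D4:**
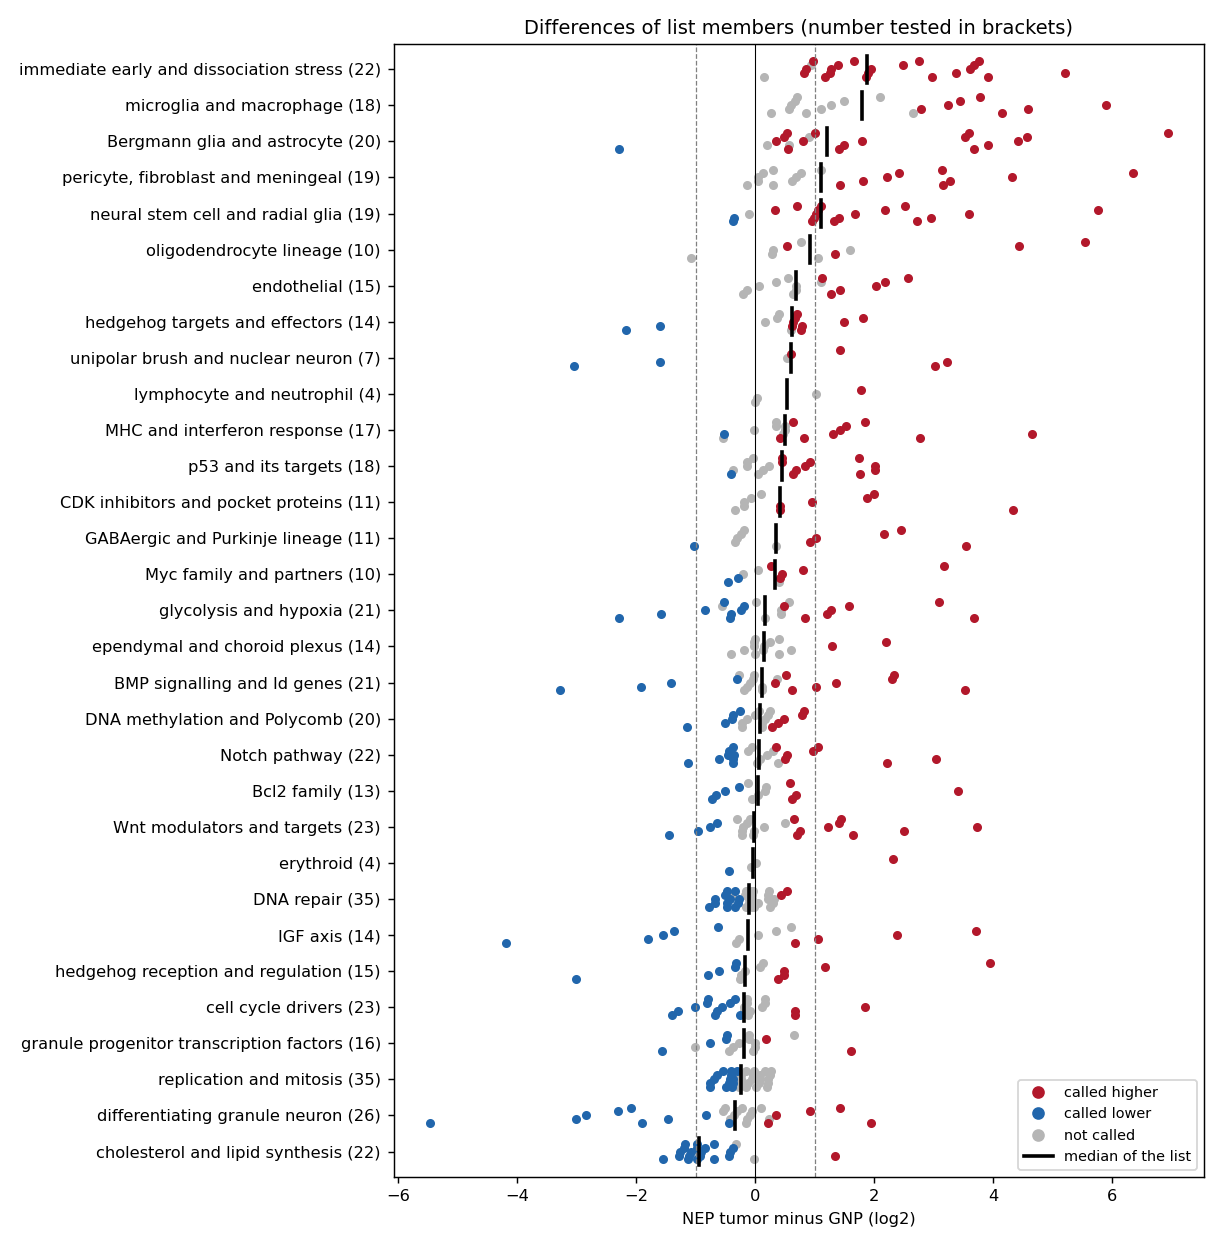
Difference of each tested list member (x axis, NEP tumor minus GNP, log2), by list (y axis, number tested in brackets), with red points called higher, blue points called lower, grey points not called and a black bar at the list median. The list of sex-linked genes is not drawn. Medians of the lists drawn run from -0.95 for cholesterol and lipid synthesis to 1.88 for immediate early and dissociation stress genes.

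Stem cell and radial glia genes were mostly higher in the tumors. Of 19 tested, 16 were called higher (84.2%, beside 20.6% of all genes), 12 of them at least 2-fold, and 2 lower (10.5%, beside 26.8%). The median was 1.10, beside -0.04 over all genes. Against NEPs the same genes had a median of -2.66, and against GNP tumors the median was -0.07 with 4 called higher and 3 lower. Nes, the gene of the driver, read 6.84, 6.80, 5.17 and 6.04 in NEP tumors and 3.32, 4.01, 3.41 and 3.23 in GNPs. Array 3 was the lowest of the tumors but above every GNP array, and Nes rose by 2.72 ± 0.27 (adjusted p = 4.38e-07), exceeding GNP tumors by 0.94 ± 0.27 (adjusted p = 0.0191). Sox1, a stem cell transcription factor, read 9.69, 9.43, 9.02 and 9.30 in NEP tumors and 3.50, 3.41, 3.55 and 3.97 in GNPs, 5.76 ± 0.14 apart (adjusted p = 1.34e-14), and the NEP arrays, at 9.27, 9.47, 9.54 and 9.70, overlapped the tumors. Slc1a3, a glutamate transporter of radial glia, and Ptprz1, a receptor phosphatase, rose by 3.59 ± 0.15 (adjusted p = 1.07e-11) and 2.96 ± 0.18 (adjusted p = 6.8e-10). Prom1, which encodes CD133, and Vim were the 2 called lower, at -0.38 (adjusted p = 0.0277) and -0.36 (adjusted p = 0.00623). The Prom1 call was lost in 4 of the 8 fits without 1 array, with adjusted p up to 0.0926 without GNP array 2, and averaging the Vim probe sets ended its call (adjusted p = 0.13).

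Astrocyte and Bergmann glia genes followed a like pattern of counts. Of 20 tested from a list of 22, 16 were called higher (80%, beside 20.6% of all genes) and 1 lower (5%, beside 26.8%), with a median of 1.21. GNP tumors against GNPs had 16 higher, 1 lower and a median of 1.32. S100b, a calcium-binding protein of glia, had the largest rise of all genes called without overlap, at 8.45, 8.24, 9.20 and 8.85 in NEP tumors and 1.78, 1.90, 1.72 and 1.61 in GNPs. S100b was dim in GNPs and rose by 6.93 ± 0.23 (adjusted p = 4.88e-13). Aqp4, a water channel of astrocytes, read 5.97, 6.20, 8.56 and 7.91 in NEP tumors and 2.09, 2.10, 2.12 and 4.67 in GNPs. Tumor arrays 3 and 4 and GNP array 4 were the high ones, and the groups were 4.41 ± 0.55 apart (adjusted p = 5.01e-06). Slc6a11, a GABA transporter, and Apoe, a lipid carrier, rose by 4.57 ± 0.13 (adjusted p = 9.79e-14) and 3.91 ± 0.27 (adjusted p = 5.24e-09). Gja1, a gap junction protein of astrocytes, went against the list: it read 6.72, 6.44, 8.03 and 7.50 in NEP tumors and 9.56, 9.43, 9.43 and 9.44 in GNPs and fell by 2.29 (adjusted p = 8.65e-07). It was also lower than in GNP tumors, at -0.95 ± 0.24 (adjusted p = 0.0101).

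Some genes of the oligodendrocyte lineage were higher. Of 10 tested from a list of 18, 4 were called higher (40%, beside 20.6% of all genes) and 0 lower (beside 26.8%), with a median of 0.91. With only the 2 groups in the fit 7 were called higher and 1 lower. Of the 17 members on the array 7 were dim in NEP tumors and 8 in GNPs. Olig1 and Olig2, factors of neural and oligodendrocyte progenitors, had the largest differences. Olig1 read 7.95, 8.15, 8.70 and 8.42 in NEP tumors and 2.60, 2.43, 2.59 and 3.42 in GNPs, 5.54 ± 0.23 apart (adjusted p = 6.58e-12). Olig2 read 7.88, 7.65, 7.96 and 7.79 in NEP tumors and 2.65, 2.83, 3.16 and 4.91 in GNPs, with GNP array 4 apart from the other 3, and rose by 4.43 ± 0.38 (adjusted p = 6.2e-08). Cnp, a myelin enzyme, and Pdgfra, a receptor of oligodendrocyte precursors, were called at 1.34 (adjusted p = 0.00236) and 0.54 (adjusted p = 0.0129). With the mean of its probe sets Cnp was at 0.82 and not called (adjusted p = 0.114). The part of other cells in these levels was not tested.

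Other neuron lineages were mixed. Of 11 GABAergic and Purkinje genes tested from a list of 19, 5 were called higher (45.5%, beside 20.6% of all genes) and 1 lower (9.09%, beside 26.8%). The median was 0.36, but -0.05 without tumor array 3 and -0.19 with the mean of all probe sets (3 higher and 1 lower). Olig3, a factor of the hindbrain germinal zone, read 7.11, 6.86, 7.51 and 7.33 in NEP tumors and 4.11, 4.22, 4.10 and 2.22 in GNPs, GNP array 4 being apart below the others, and rose by 3.54 ± 0.31 (adjusted p = 9.38e-08). Foxp2, a factor of Purkinje cells, read 7.96, 7.87, 7.67 and 7.77 in NEP tumors and 5.45, 5.48, 5.46 and 5.08 in GNPs and rose by 2.45 ± 0.14 (adjusted p = 2.78e-10). Calb1, a Purkinje calcium buffer, read 2.88, 2.89, 5.73 and 4.74 in NEP tumors and 1.997, 1.72, 1.99 and 1.88 in GNPs, so that only tumor arrays 3 and 4 stood well above the array median, and the difference of 2.16 ± 0.47 was called (adjusted p = 0.00115). Lhx5, called lower at -1.03 (adjusted p = 0.0489), lost its call in all 8 fits without 1 array.

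Of 7 genes of unipolar brush and nuclear neurons tested from a list of 13, 4 were called higher (57.1%, beside 20.6% of all genes) and 2 lower (28.6%, beside 26.8%). Lmx1a, Lmx1b, Tbr1 and Isl1, also on the array, did not pass the signal filter and are not in these counts. Calb2, one of those higher, is also in the list of differentiating granule neurons. Pou4f1 and Lhx2, homeobox factors, rose by 3.22 ± 0.27 (adjusted p = 4.63e-08) and 3.03 ± 0.10 (adjusted p = 7.43e-13). Lhx2 read 7.44, 7.56, 7.76 and 7.84 in NEP tumors and 4.85, 4.57, 4.70 and 4.37 in GNPs, with no overlap. Eomes, the factor that marks unipolar brush cells, read 3.02, 3.30, 3.22 and 3.07 in NEP tumors and 6.06, 6.19, 5.90 and 6.63 in GNPs and fell by 3.04 (adjusted p = 6.36e-05). Tlx3, a homeobox factor, fell by 1.60 (adjusted p = 1.68e-06).

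Signalling lists held strong changes of single genes in both directions. Notch pathway genes had 7 of 22 called higher (31.8%, beside 20.6% of all genes) and 8 lower (36.4%, beside 26.8%). Their median was 0.06, and -0.01 with the mean of all probe sets. Jag1, a Notch ligand, read 8.33, 8.31, 7.64 and 7.99 in NEP tumors and 4.94, 4.70, 5.27 and 5.19 in GNPs, and rose by 3.04 ± 0.14 (adjusted p = 1.57e-11). Hes1 and Hes5, repressors that Notch induces, rose by 2.21 ± 0.21 (adjusted p = 2.33e-07) and 1.06 ± 0.22 (adjusted p = 0.000926), while Hes6, which opposes Hes1 in mouse, fell by 1.12 (adjusted p = 2.06e-07). Hes1 also exceeded GNP tumors by 1.38 ± 0.21 (adjusted p = 0.000203).

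Insulin-like growth factor genes had 4 of 14 called higher (28.6%, beside 20.6% of all genes) and 5 lower (35.7%, beside 26.8%). Their median of -0.11 turned positive without tumor array 1 (0.06), without tumor array 2 (0.11) and without GNP array 4 (0.06). The binding proteins diverged. Igfbp5 read 6.63, 6.78, 6.65 and 6.90 in NEP tumors and 11.01, 10.92, 10.99 and 10.78 in GNPs and fell by 4.18 (SE 0.13, adjusted p = 2.61e-13). Igfbp7 read 7.72, 7.73, 8.59 and 8.30 in NEP tumors and 3.75, 4.06, 4.21 and 5.48 in GNPs, with GNP array 4 the highest of its group, and rose by 3.71 ± 0.33 (adjusted p = 8.97e-08). Igfbp3 rose by 2.38 ± 0.32 (adjusted p = 1.27e-05). Igf2, a growth factor of progenitors and tumors, read 4.96, 4.75, 5.91 and 5.56 in NEP tumors and 4.18, 4.57, 4.27 and 5.73 in GNPs, overlapped and was not called at 0.61 ± 0.69 (adjusted p = 0.496).

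Among Wnt modulators and targets 9 of 23 were called higher (39.1%, beside 20.6% of all genes) and 4 lower (17.4%, beside 26.8%). Wif1, a secreted Wnt inhibitor, read 6.17, 5.84, 2.35 and 4.75 in NEP tumors, array 3 far below the others, and 0.97, 0.71, 1.49 and 1.05 in GNPs, where it was dim. It was called at 3.72 ± 0.55 (adjusted p = 3.44e-05). Fzd1, a Wnt receptor, read 9.35, 9.51, 9.16 and 9.27 in NEP tumors and 6.98, 6.61, 6.81 and 6.88 in GNPs and rose by 2.50 ± 0.13 (adjusted p = 1.18e-10), and Tcf7l2, a transcription factor of the pathway, fell by 1.45 (adjusted p = 9.49e-06). Sfrp2, a secreted inhibitor, and Rnf43, a ligase that removes Wnt receptors, were called against GNPs and against GNP tumors: Sfrp2 at 1.45 ± 0.38 (adjusted p = 0.00455) and 1.98 ± 0.38 (adjusted p = 0.0013), Rnf43 at 1.64 ± 0.24 (adjusted p = 3.56e-05) and 1.65 ± 0.24 (adjusted p = 0.000159).

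Genes of BMP signalling had 8 of 21 called higher and 4 lower. Gdf10, a BMP family ligand of Bergmann glia, rose by 3.53 ± 0.25 (adjusted p = 5.83e-09), Bmp5 by 2.33 ± 0.41 (adjusted p = 0.000203) and Id3, a target that holds back differentiation, by 2.30 ± 0.25 (adjusted p = 1.1e-06). Chrd, which encodes the BMP antagonist chordin, read 3.86, 4.11, 3.75 and 3.96 in NEP tumors and 7.05, 6.97, 7.22 and 7.56 in GNPs and fell by 3.28 (adjusted p = 1.19e-11). Bmpr1b, a receptor, fell by 1.91 (adjusted p = 5.15e-08). Bmpr2 was called lower at -0.31 (adjusted p = 0.00155), but with the mean of its probe sets it was 0.06 and not called (adjusted p = 0.479).

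DNA methylation and Polycomb genes had 5 of 20 called each way (25%, beside 20.6% of all genes higher and 26.8% lower), which is near the background. Dnmt3b, a de novo methyltransferase, read 5.16, 5.29, 5.30 and 5.28 in NEP tumors and 6.45, 6.31, 6.52 and 6.31 in GNPs and fell by 1.14 (adjusted p = 7.72e-09). Bmi1, of the Polycomb complex, read 10.82, 10.59, 10.65 and 10.62 in NEP tumors and 9.94, 9.66, 9.86 and 10.05 in GNPs and rose by 0.79 ± 0.12 (adjusted p = 4.69e-05). The count of higher calls was 3 without tumor array 4, without GNP array 3 and without GNP array 4, and the count of lower calls 3 without tumor array 3.

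Macrophage genes were mostly dim in GNPs and mostly above the array median in the tumors. Of 18 tested from a list of 22, 7 were called higher (38.9%, beside 20.6% of all genes) and 0 lower, with a median of 1.79. Of the 21 members on the array, 5 were dim in NEP tumors and 20 in GNPs. A gene was tested if it reached the array median on at least 3 arrays of any group. Members dim in GNPs thus entered mainly through other groups. A fall from GNPs was hardly open to them, so 0 lower is no result about the list. The same holds for members of other lists that were dim in GNPs. The summed signal of the 21 members ran from 9.10 to 10.14 on the NEP tumor arrays and from 6.36 to 6.46 on the GNP arrays. The number called depended on the fit: it was 17 with only the 2 groups, 4 without tumor array 3 and 2 with tumor arrays 1 and 2 alone. Lyz2, a lysozyme of macrophages, read 6.79, 7.03, 7.37 and 6.91 in NEP tumors and 2.32, 2.29, 2.85 and 2.29 in GNPs, 4.59 ± 1.02 apart (adjusted p = 0.00143). C1qa, a complement protein of microglia, read 4.70, 4.95, 6.84 and 6.16 in NEP tumors, the higher values on arrays 3 and 4, and 1.35, 1.55, 1.33 and 1.80 in GNPs, 4.16 ± 1.21 apart (adjusted p = 0.0093), and not called with tumor arrays 1 and 2 alone (adjusted p = 0.0992). GNP tumors had a list median of 2.69 against GNPs, and between the tumors it was -1.03 with 0 genes called.

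Genes of antigen presentation and interferon response had 9 of 17 called higher (52.9%, beside 20.6% of all genes) and 1 lower (5.88%, beside 26.8%). The median was 0.51, and the calls were 14 higher and 2 lower with only the 2 groups in the fit. H2-Aa, an MHC class II chain, read 6.69, 7.04, 6.45 and 6.52 in NEP tumors and 2.12, 2.28, 1.83 and 1.85 in GNPs, where it was dim, and rose by 4.65 ± 0.57 (adjusted p = 4.37e-06). Cd74, the invariant chain that travels with class II, rose by 2.77 ± 0.51 (adjusted p = 0.000271). Both were lower in NEP tumors than in GNP tumors, H2-Aa at -2.25 ± 0.57 (adjusted p = 0.0095) and Cd74 at -2.41 ± 0.51 (adjusted p = 0.00273). Of 16 lymphocyte and neutrophil genes on the array, 14 were dim in NEP tumors and 16 in GNPs. The 1 called was S100a8, a neutrophil and monocyte protein, at 1.78 (adjusted p = 0.0242), and its adjusted p was 0.0568 without tumor array 1 and 0.0657 without array 2.

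Some vessel and stroma genes were higher too. Of 15 endothelial genes 6 were called higher (40%, beside 20.6% of all genes) and 0 lower (beside 26.8%), with a median of 0.69. The higher calls of these endothelial genes were 12 with only the 2 groups in the fit and 2 with tumor arrays 1 and 2 alone. Their summed signal ran from 8.62 to 9.81 in NEP tumors and from 7.88 to 8.48 in GNPs. Cldn5, a tight junction protein, read 5.40, 5.44, 7.24 and 6.85 in NEP tumors and 3.68, 3.82, 4.004 and 5.29 in GNPs; tumor arrays 3 and 4 were the high ones, and GNP array 4 lay just below tumor array 1. The difference was 2.04 ± 0.47 (adjusted p = 0.00197), and not called with tumor arrays 1 and 2 alone (adjusted p = 0.061). Vwf, a clotting protein of endothelium, rose by 2.58 ± 0.47 (adjusted p = 0.000275). Of 19 pericyte, fibroblast and meningeal genes 9 were called higher (47.4%, beside 20.6% of all genes) and 0 lower (median 1.10), or 14 and 5 higher in the same 2 alternatives. Rgs5, a pericyte regulator, read 6.86, 6.30, 8.39 and 8.002 in NEP tumors and 4.01, 3.32, 3.78 and 5.83 in GNPs, GNP array 4 being nearest to the tumors, and rose by 3.15 ± 0.57 (adjusted p = 0.000237). Abcc9, a channel subunit of pericytes, rose by 4.32 ± 0.42 (adjusted p = 3.53e-07). Of 4 erythroid genes tested 1 was called each way, the lower call being lost without tumor array 1 or 2 and without GNP array 3 or 4, and of 14 ependymal and choroid plexus genes 2 were called higher, or 4 without tumor array 2. The part of these cells in the other differences was not tested.

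**Figure D5:**
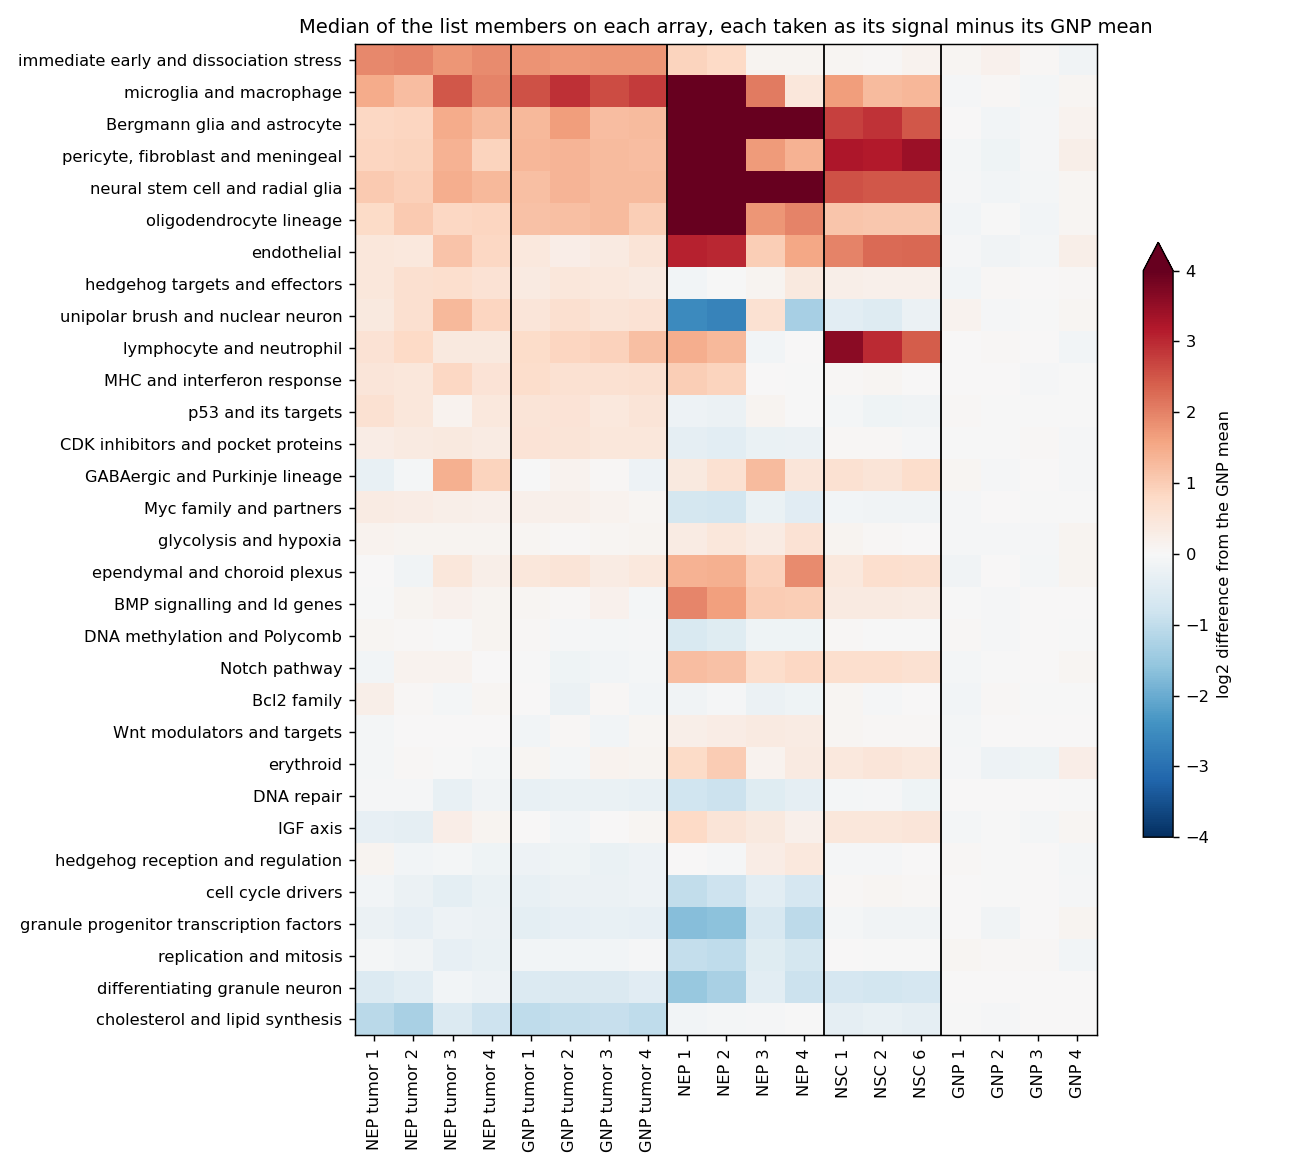
Median over the members of each list (down the page) on each array (across), each member taken as its signal minus its own GNP mean (log2, color scale ending at 4). Immediate early, stem cell, astrocyte, macrophage and stroma lists are red on all 4 NEP tumor arrays, cholesterol synthesis is blue, and replication and DNA repair lists are near white.

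Immediate early and stress genes rose almost as a whole. Of 22 tested, 20 were called higher (90.9%, beside 20.6% of all genes) and 0 lower, 17 of them at least 2-fold, with a median of 1.88. GNP tumors against GNPs had 20 higher and a median of 1.77. Klf4, a transcription factor, read 9.84, 9.39, 9.13 and 9.29 in NEP tumors, 5.67, 5.48 and 5.55 in NSCs and 6.69, 6.06, 6.63 and 3.58 in GNPs. GNP array 4 lay apart below the other GNPs, and the difference was 3.67 ± 0.50 (adjusted p = 1.32e-05). Hspa1b, a heat shock protein, read 10.23, 9.77, 8.01 and 9.38 in NEP tumors, 4.20, 4.49 and 4.39 in NSCs and 6.25, 6.08, 6.30 and 3.71 in GNPs, again with GNP array 4 lowest, and rose by 3.76 ± 0.61 (adjusted p = 8.23e-05). Egr3, an activity-induced factor, read 5.87, 5.18, 7.63 and 7.09 in NEP tumors and 1.09, 1.40, 1.07 and 1.39 in GNPs, where it was dim, and rose by 5.21 ± 0.36 (adjusted p = 4.65e-09), far above GNP tumors at 2.58, 2.48, 2.73 and 2.58 (tumor difference 3.85 ± 0.36, adjusted p = 2.05e-06). How the cells were prepared is not in the labels, and its part in these levels was not tested.

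Cholesterol synthesis genes fell together. Of 22 tested from a list of 25, 1 was called higher (4.55%, beside 20.6% of all genes) and 19 lower (86.4%, beside 26.8%), 8 of these at least 2-fold. The median was -0.95, beside -0.04 over all genes. GNP tumors against GNPs had 1 higher and 18 lower with a median of -0.999. Mvd, of the mevalonate pathway, read 5.36, 5.35, 6.41 and 6.14 in NEP tumors and 6.93, 7.82, 7.45 and 7.24 in GNPs and fell by 1.55 (adjusted p = 2.71e-05). Sqle, the epoxidase that commits squalene to sterols, read 7.24, 7.54, 8.19 and 7.94 in NEP tumors and 8.88, 8.98, 9.03 and 9.17 in GNPs and fell by 1.29 (adjusted p = 1.92e-06). Tumor arrays 3 and 4 were nearer to the GNPs for both genes. Srebf2, the main activator of sterol genes, fell by 1.27 (adjusted p = 2.1e-07), whereas Srebf1, which acts more on fatty acid genes, rose by 1.34 ± 0.14 (adjusted p = 7.41e-07).

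Glycolysis and hypoxia genes had 7 of 21 called higher (33.3%, beside 20.6% of all genes) and 8 lower (38.1%, beside 26.8%). Hk2, the hexokinase that hedgehog signalling raises in granule progenitors of mouse, read 10.23, 10.33, 9.91 and 10.02 in NEP tumors and 6.95, 6.54, 6.71 and 7.95 in GNPs, array 4 being the highest GNP, and rose by 3.08 ± 0.25 (adjusted p = 3.27e-08). Aldoc, an aldolase of glia and Purkinje cells, rose by 3.68 ± 0.24 (adjusted p = 1.92e-09). Tpi1, triose phosphate isomerase, read 7.49, 7.66, 8.01 and 7.87 in NEP tumors and 10.02, 10.08, 10.06 and 10.04 in GNPs and fell by 2.29 (adjusted p = 2.8e-11), and the muscle phosphofructokinase Pfkm fell by 1.59 (adjusted p = 1.8e-06).

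The largest differences without overlap named further genes. Upward, the first 4 after S100b were Sema3e, Lyz1, Foxd1 and Smoc1. Sema3e, a secreted guidance protein, read 9.12, 8.89, 8.95 and 8.88 in NEP tumors and 2.29, 2.43, 2.52 and 2.53 in GNPs, 6.52 ± 0.11 apart (adjusted p = 3.58e-17), and all groups without a tumor were near the array median, NEPs at 2.50 ± 0.24 (SD, n = 4) and NSCs at 2.58 ± 0.14 (SD, n = 3). Foxd1, a forkhead factor, read 7.31, 7.07, 8.11 and 7.89 in NEP tumors and 1.15, 1.09, 1.26 and 1.47 in GNPs, 6.35 ± 0.69 apart (adjusted p = 1.01e-06), and Smoc1, a matrix protein, rose by 6.17 ± 0.23 (adjusted p = 2.25e-12). Lyz1, a lysozyme close in sequence to Lyz2 so that their probes may not be separate, rose by 6.43 ± 0.98 (adjusted p = 4.62e-05). Tmem163, Sowaha, Tecta and Sparcl1 rose by 6.01, 5.85, 5.37 and 5.32.

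Downward, Mfap4, a protein of elastic fibers, led with 5.70, 5.57, 4.19 and 4.84 in NEP tumors and 10.53, 10.94, 10.78 and 10.76 in GNPs, and fell by 5.68 (adjusted p = 1.35e-11). Grb10, an imprinted adaptor that restrains insulin and growth factor receptors, read 2.67, 2.52, 2.60 and 2.81 in NEP tumors and 8.19, 8.19, 8.09 and 8.35 in GNPs and fell by 5.55 (SE 0.08, adjusted p = 7.6e-18). Mtx2, an import protein of the mitochondrial membrane, read 2.61, 2.25, 2.84 and 2.65 in NEP tumors and 8.17, 7.82, 8.09 and 8.16 in GNPs and fell by 5.47 (adjusted p = 4.45e-16). The tumor values of Grb10 and Mtx2 lay at or near the array median, and GNP tumors were as low, at 2.88 ± 0.07 and 2.65 ± 0.13 (SD, n = 4). NEPs, at 9.005 ± 0.10 and 7.63 ± 0.06 (SD, n = 4), and NSCs, at 7.90 ± 0.11 and 8.18 ± 0.03 (SD, n = 3), were high. NSCs share the run of the tumors but are another cell type, and the part of the run in these falls was not tested. Rps4l, Ucma, Gsto1, Kcnd2 and the unnamed transcripts A930009L07Rik and A930017K11Rik fell, at -4.97, -4.84, -4.50, -4.35, -5.23 and -4.28.

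Genes that set NEP tumors apart from both GNPs and GNP tumors were ranked by the smaller of the 2 differences among genes called in both, and these values describe the choice. Tecta, a matrix protein of the inner ear, led the higher ones with 6.14, 5.85, 8.67 and 8.23 in NEP tumors, 2.91, 2.55, 2.51 and 2.44 in GNP tumors and 1.76, 1.83, 1.90 and 1.91 in GNPs. Tumor arrays 3 and 4 were the high ones. Nptx1, a synaptic pentraxin, read 5.43, 4.75, 5.62 and 5.51 in NEP tumors, 1.999, 2.11, 2.10 and 1.88 in GNP tumors and 1.74, 1.70, 1.85 and 2.03 in GNPs. Mr1, which presents vitamin metabolites to T cells, read 6.06, 6.43, 6.50 and 6.43 in NEP tumors, 3.72, 3.89, 3.60 and 3.68 in GNP tumors and 2.81, 2.63, 2.92 and 3.27 in GNPs. Egr3, Krt12, Tfpi, Foxd1 and Lhx3 completed the 8, at 5.21, 4.93, 4.05, 6.35 and 2.22 against GNPs and 3.85, 2.86, 2.85, 2.71 and 2.22 against GNP tumors.

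The lower ones included the Y-linked genes. Eif2s3y read 1.57, 1.39, 1.66 and 1.23 in NEP tumors, 7.64, 7.61, 7.56 and 7.47 in GNP tumors and 7.12, 6.58, 6.98 and 6.91 in GNPs, and Kdm5d and Uty, also on the Y, were dim on the NEP tumor arrays as well, at 1.24 ± 0.21 and 1.09 ± 0.15 (SD, n = 4). Xist, transcribed from the inactive X, read 10.39, 10.04, 10.60 and 10.53 in NEP tumors, 3.24, 2.76, 2.51 and 3.24 in GNP tumors and 9.47, 9.52, 9.49 and 9.49 in GNPs. NEP tumor arrays thus had Xist signal without Y-linked signal, GNP arrays had both, and GNP tumor arrays had Y-linked signal with little Xist. Both signals on each GNP array are what RNA of male and female animals together gives, so a GNP array may not stand for 1 animal. The labels do not state pooling. The sex of the material thus moved with the groups, and its part in other differences was not tested. Among the other low genes, Mdk, the growth factor midkine, read 6.64, 6.45, 5.90 and 5.89 in NEP tumors, 7.79, 7.81, 7.85 and 7.84 in GNP tumors and 9.72, 9.72, 9.77 and 9.61 in GNPs, and Islr2, an axon growth protein, read 7.02, 7.57, 4.91 and 6.20 in NEP tumors, 9.49, 9.45, 9.54 and 9.50 in GNP tumors and 9.99, 10.18, 10.21 and 10.20 in GNPs, tumor array 3 being the lowest. Hddc3 and Necab3 fell, at -2.80 and -1.86 against GNPs. AI506816, a transcript with no named function in the files, read 1.72, 2.16, 2.20 and 1.74 in NEP tumors and 6.29, 6.46, 6.22 and 2.34 in GNPs, where array 4 alone was nearly as low as the tumors.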

How the data were processed

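RNA was labelled from total RNA (Ambion WT Expression Kit and Affymetrix WT Terminal Labeling, per the labels' protocols) and hybridised to Affymetrix Mouse430+2 arrays. The authors deposited log2 values. The submitters' processing notes name RMA and Affymetrix Expression Console, with versions not given in the sources used here. RMA sets every array to one distribution, so a shift of all genes together cannot be seen. The number of arrays limits the precision.

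Of 45101 probe sets, 34945 had 1 gene symbol, 932 several and 9160 none. The probe set with the highest mean stood for each of 18193 genes, and 12148 genes at or above the array median on at least 3 arrays were tested. One limma 3.58.1 model (R 4.3.3) on all 5 groups gave each difference, with Benjamini-Hochberg adjustment, and was tested on simulated data. No 2 arrays held identical values. Promoter windows came from RefSeq. Members and gene lists were chosen with earlier results of these data known. Genes named were the marker, granule factor and hedgehog genes, the 12 largest differences each way without overlap, the 4 largest called members of every other list with members called against its majority, and the 8 each way farthest from both GNPs and GNP tumors. Alternatives changed the probe set rule, filter, scaling, groups fitted, variance trend, replicate block and arrays used.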

Additional observations from a re-analysis of the deposited data

Results flagged for a closer look

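Each of 70 genes whose signals are listed above and 31 gene lists was examined for 1 array standing apart from the other 3 of its group, in the NEP tumors and in the GNPs (Dixon's test). Of 202 groups of 4 arrays 17 had such an array, and chance alone gives about 1 in 20.

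GNP array 4 accounted for 9 of them. It was low for the heat shock gene Hspa1b (3.71), the germinal zone factor Olig3 (2.22), Foxp2 (5.08) and the transcript AI506816 (2.34). It was high for the astrocyte water channel Aqp4 (4.67), the glial factor Olig1 (3.42) and the death gene Bbc3 (4.27). Its list medians, taken as differences from the GNP mean, stood apart for glycolysis and hypoxia at 0.11 and for replication and mitosis at -0.09.

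Other GNP arrays stood apart for Gja1 (9.56 on array 1), Islr2 (9.99 on array 1) and Lyz2 (2.85 on array 3), and in the list medians of array 1 for the Myc family (-0.04) and differentiating granule neurons (0.03). Among NEP tumors, array 2 stood apart for Cdkn2b (4.71) and array 1 for Mr1 (6.06). Tumor array 3 stood apart in the median of the pericyte, fibroblast and meningeal list (1.39).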

How the results depend on the processing

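Of the 202 genes named by rule, 157 kept their call under every alternative that tested them, 33 lost it and 10 gained it under at least 1. Cenpe (0.53, called) and Bmpr2 (0.0625, not called) turned to the higher side with the mean of all probe sets, which moved 53 of 197 named genes by over 1.5 times; the cause was not tested. That mean also ended the calls of Zic1, Zic4, Gpr161, Nfib, Mnt, Igfbp4, Vim and Cnp and gave calls to Meis1, Mycn and Ccnd2. Calls of Zic4, Stk36, Gas1 and Chek2 were lost with tumor arrays 3 and 4 alone, and those of Boc, Mcm10 and Pdgfra with arrays 1 and 2 alone, each with fewer arrays. Replicate numbers were not used to pair the arrays in the main fit. Same-numbered arrays had correlations of their deviations from -0.05 to 0.29, but those of differently numbered arrays were not computed, so these values cannot settle pairing. With the replicate block 5322 genes were called, 2305 higher and 3017 lower.

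With no filter 15419 genes lay within 2-fold and the median correlation with GNP arrays was 0.974. With the filter at the 75 percentile, which tests fewer genes, that correlation was 0.894, genes at least 2-fold apart numbered 195 for NEP tumors against GNP tumors, 971 for GNP tumors against GNPs and 1809 for NEP tumors against NEPs, where 2361 were called lower, and 278 genes had NSC arrays within or beyond the GNP range. With centred arrays 1201 genes were called higher in NEP tumors than in GNP tumors.

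Leaving out 1 array at a time gave 5186 to 5521 calls for NEP tumors against GNPs, 2225 to 2460 higher and 2930 to 3151 lower. At least 2-fold apart were 1285 to 1362 genes, 718 to 777 higher and 545 to 609 lower, and 9211 to 9347 lay within 2-fold. NEP tumors against GNP tumors gave 2120 to 2822 calls, 1358 to 1926 higher and 729 to 906 lower, with 288 to 326 at least 2-fold. GNP tumors against GNPs gave 5402 to 5696 calls and NEP tumors against NEPs 7862 to 8547.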
